A study of Homo sapiens with 12 samples.

Results

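The deubiquitinases of the USP and UCH families were followed in T47D cells in which a subunit of the proteasome could be lowered, with and without a proteasome inhibitor. The genes were chosen by symbol: protein-coding genes with a numbered USP symbol, leaving out the USP17-like copies, together with UCHL1, UCHL3, UCHL5 and BAP1, and with 10 or more counts in at least 3 of the 12 libraries. Of 57773 genes in the count files, 54 had such a symbol and 48 reached the counts, 44 of them USP genes and 4 UCH genes. The other 6 had next to no reads over the 12 libraries together, namely 9 counts for USP6, 4 for USP44, 1 each for USP26 and USP41 and 0 for USP29 and USP50.

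Deubiquitinases remove ubiquitin from proteins or cut ubiquitin chains, and so oppose the ubiquitin ligases that mark proteins for the proteasome or for other fates. USP and UCH enzymes are cysteine proteases, the USP family being the largest and the UCH family a small one with a narrow active site. USP14 and UCHL5 work on the proteasome itself: USP14 docks on the 19S regulatory particle at PSMD2, and UCHL5 is held there by the ubiquitin receptor ADRM1. USP5 takes apart free ubiquitin chains, UCHL1 and UCHL3 release ubiquitin from small adducts, and many other members act on single substrates in the nucleus, at endosomes or on mitochondria.

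T47D is a luminal, estrogen receptor-positive breast cancer line, and all cells carried an inducible short hairpin RNA against PSMD2. In Lo19S cells the hairpin had been induced with 0.2 µg/ml doxycycline for 3 days, after which the cells were kept for 24 h without doxycycline, while in control cells it was not induced. Cells of each state were then given either 20 nM bortezomib, which blocks the catalytic core of the proteasome, or its solvent DMSO, for 16 h. The 4 groups were Lo19S with bortezomib, control with bortezomib, Lo19S with DMSO and control with DMSO, with 3 libraries each of polyA RNA. Both Lo19S groups and neither control group had received doxycycline, so effects of the hairpin and of doxycycline cannot be told apart. Nothing in the labels ties the 3 libraries of a group to separate cultures, so p-values measure the spread between these libraries, which may be technical.

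Library totals ran from 7376597 to 15003480 counts. PSMD2, the target of the hairpin, was at 541, 546 and 539.6 CPM (counts per library scaled to a common size) in Lo19S cells with bortezomib and 1509, 1510.0 and 1528 CPM in control cells with bortezomib. With DMSO it was at 183, 189 and 184 CPM in Lo19S cells and 408, 392 and 417 CPM in control cells. It was lower in Lo19S than in control cells by a log2 fold change of -1.13 (SE 0.035, adjusted p = 6.27e-30) under DMSO and -1.48 (SE 0.033, adjusted p = 2.1e-36) under bortezomib. Control DMSO replicate 3 stood apart from replicates 1 and 2: the chi-square of its counts, divided by the degrees of freedom, was 3.98 and 4.36, against 1.16 to 2.01 in the other 10 pairs of replicates. Read sampling alone gives a value near 1. Most of the other pairs lay close to it, so the small p-values rest on little spread between libraries. All 10 luminal markers were found, and their summed level was 2860 to 3010 CPM in Lo19S cells with bortezomib, 2890 to 2980 CPM in control cells with bortezomib, 5610 to 5690 CPM in Lo19S cells with DMSO and 6390 to 6520 CPM in control cells with DMSO. The 7 fibroblast markers summed to 44.2 to 47.1, 63.5 to 69.7, 33.0 to 33.8 and 26.0 to 31.4 CPM in the same 4 groups, the 7 leukocyte markers to at most 2.42 CPM with CD3E at 0, and the 4 endothelial markers found to at most 0.372 CPM. The part of these shifts in the deubiquitinase results was not tested, and in bulk RNA fewer cells of a type and less RNA per cell cannot be told apart. CPM values here are scaled with trimmed-mean (TMM) factors, and fold changes and adjusted p-values come from edgeR's quasi-likelihood test over 14714 genes with Benjamini-Hochberg adjustment, a gene being called at an adjusted p below 0.05. The marker sums hide single markers that went opposite ways. With bortezomib 2 luminal markers were called higher and 8 lower in each state. Between the states under bortezomib 5 were called higher in Lo19S cells and 3 lower, with log2 fold changes from -2.28 to 1.2. Under DMSO 1 was higher and 5 were lower, from -0.3 to 0.11. Of the fibroblast markers only 2 were tested, at -0.64 and 1.27 between the states under bortezomib.

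All 48 genes passed the filter on low counts. On a level per kilobase of exon, the highest members in control cells with DMSO were USP22, the deubiquitinase of the SAGA coactivator, at 34.1 CPM per kb, USP7, which acts on MDM2 and p53, at 25.1 CPM per kb, USP10 at 24.6 CPM per kb and USP1 at 19.9 CPM per kb. USP51 was the lowest, at 0.528 CPM per kb. The length used was the union of all annotated exons of a gene, so the order between genes depends partly on the annotation. In both groups with bortezomib the order had changed at its top, where USP14 stood first at 46.1 CPM per kb in Lo19S cells and 50.8 CPM per kb in control cells. The 48 genes together took 0.401, 0.408 and 0.416% of all counts in the Lo19S bortezomib libraries, 0.379, 0.381 and 0.378% in the control bortezomib libraries, 0.346, 0.349 and 0.349% in the Lo19S DMSO libraries and 0.342, 0.342 and 0.334% in the control DMSO libraries. The share was higher in every bortezomib library than in every DMSO library, and the groups did not overlap within either treatment. Of the 48 genes, 5 were called in all 5 comparisons (UCHL1, UCHL3, USP2, USP5 and USP14), and 4 were called in none (USP19, USP35, USP43 and USP46), with log2 fold changes between -0.17 and 0.076. Calls in all or in none of the comparisons were not counted over all genes, so these counts describe only the 48 genes. Some calls of UCHL3 and USP2 between the states were lost when single libraries were left out, as given below.

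**Figure D1:**
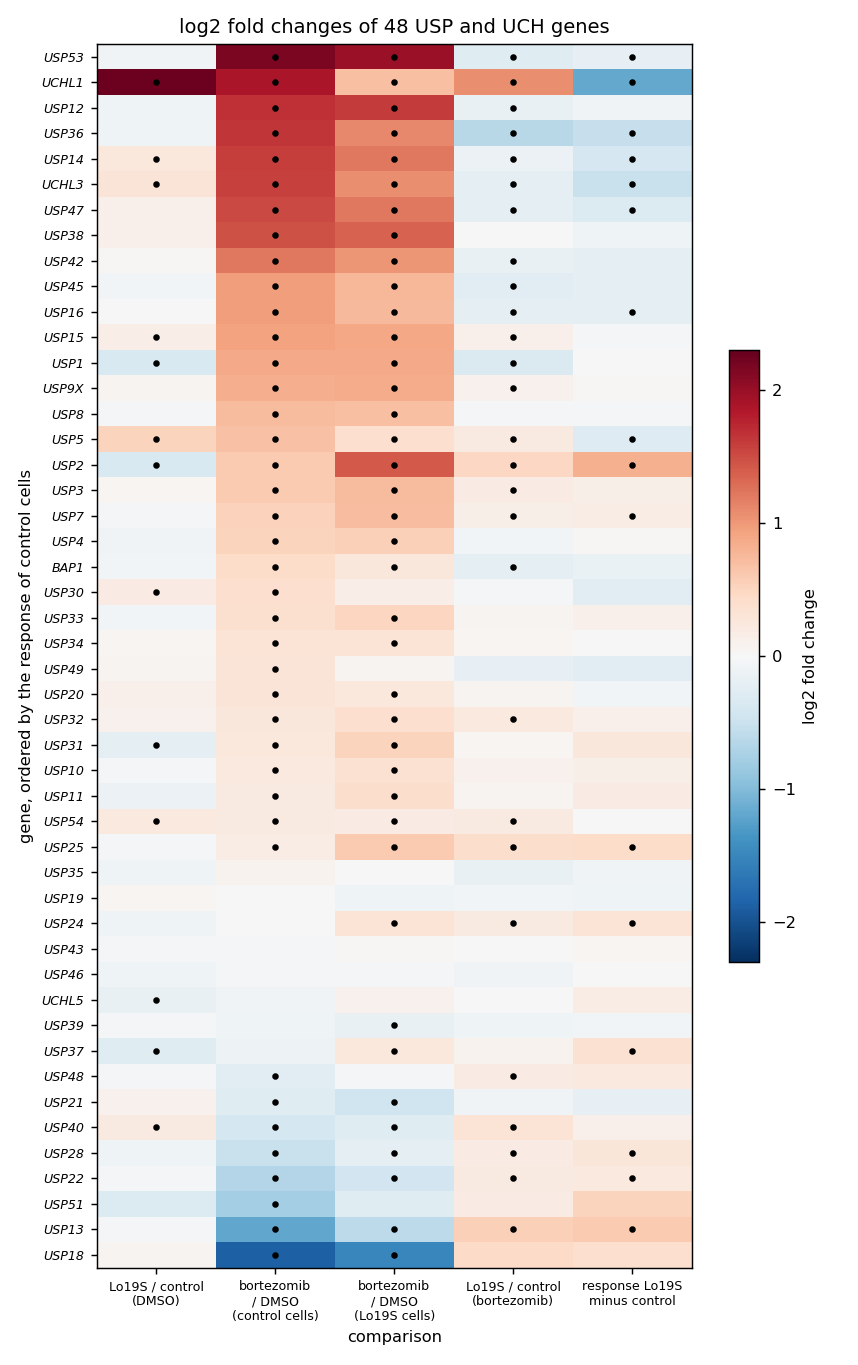
Log2 fold changes of the 48 USP and UCH genes (rows, ordered by the response of control cells) in the 5 comparisons (columns), red for higher and blue for lower in the group named first; a dot marks an adjusted p below 0.05. Both bortezomib columns are mostly red, with 32 genes called higher in each, a count that becomes 18 in control cells and 22 in Lo19S cells when the counts are scaled by library totals in place of TMM factors. With library totals these are 37.5% of members in control and 45.8% in Lo19S cells, against 25.3% and 25.4% of all genes.

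USP14 was the member with the most RNA per kilobase of annotated exon under bortezomib and differed in every comparison. It was at 278, 265 and 284 CPM in Lo19S cells with bortezomib and 299, 302 and 311 CPM in control cells with bortezomib. With DMSO it was at 118, 119 and 121 CPM in Lo19S cells and 102, 103 and 96.3 CPM in control cells. The Lo19S libraries lay above the control libraries under DMSO and below them under bortezomib, with no overlap in either. The log2 fold change of Lo19S over control was 0.25 (SE 0.044, adjusted p = 1.78e-05) under DMSO and -0.14 (SE 0.038, adjusted p = 0.00298) under bortezomib. Bortezomib raised USP14 by 1.21 (SE 0.041, adjusted p = 2.99e-30) in Lo19S cells and by 1.595 (SE 0.041, adjusted p = 3.21e-35) in control cells on the log2 scale, and the response of Lo19S cells was the smaller one by a difference of -0.38 (SE 0.058, adjusted p = 9.77e-07). With library totals in place of TMM factors the difference between the states under bortezomib was -0.026 with an adjusted p of 0.602.

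UCHL5, the other proteasome-bound enzyme, was called in 1 comparison, that of the states under DMSO. Its levels were 97.8, 106 and 103 CPM in Lo19S cells with bortezomib and 97.8, 104 and 104 CPM in control cells with bortezomib. UCHL5 with DMSO stood at 93.4, 92.8 and 102 CPM in Lo19S cells and 112, 116 and 96.9 CPM in control cells. The ranges of the groups overlapped in both treatments. Under DMSO the log2 fold change of Lo19S over control was -0.18 (SE 0.053, adjusted p = 0.0115), and it lost its call when replicate 1 or 2 of either DMSO group was left out (adjusted p up to 0.0932). The bortezomib response was 0.092 (SE 0.055, adjusted p = 0.126) in Lo19S cells and -0.086 (SE 0.055, adjusted p = 0.145) in control cells, and neither passed the test. Nor did the log2 fold change between the states under bortezomib, 0.001 (SE 0.056, adjusted p = 0.989), or the difference of the responses, 0.18 (SE 0.078, adjusted p = 0.0847). With library totals the response was called, at -0.197 in Lo19S cells (adjusted p = 0.0013) and -0.467 in control cells (adjusted p = 1.64e-10), and so was the difference, at 0.27 (adjusted p = 0.00598). Without a filter the response in control cells was also called, at -0.156 (adjusted p = 0.00801). UCHL5 shares 6.8% of its exonic bases with RO60 on the opposite strand.

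The third deubiquitinase of the 19S particle is PSMD14, a metalloprotease outside the USP and UCH families, and ADRM1 is the receptor that holds UCHL5. PSMD14 was at 413, 415 and 409.8 CPM in Lo19S cells with bortezomib and 382, 383 and 398 CPM in control cells with bortezomib. PSMD14 with DMSO stood at 194, 191 and 195 CPM in Lo19S cells and 119, 114 and 108 CPM in control cells. It was higher in Lo19S cells under DMSO (0.77 log2, adjusted p = 8.97e-21) and its bortezomib response was smaller there, at 1.10 against 1.77 in control cells, a difference of -0.68 (adjusted p = 3.87e-14). ADRM1 had log2 fold changes of the same signs, 0.83 (adjusted p = 2.33e-18) for the states under DMSO and -0.90 (adjusted p = 5.67e-15) for the difference of the responses. USP14 shared those signs, and UCHL5 did not. The DMSO libraries enter both comparisons, so a higher Lo19S level under DMSO lowers the difference of the responses by construction.

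UCHL1, best known as an abundant neuronal hydrolase, showed the largest difference between the states of any member. It was at 43.5, 39.1 and 41.3 CPM in Lo19S cells with bortezomib and 19.3, 18.9 and 20.8 CPM in control cells with bortezomib. UCHL1 with DMSO stood at 26.2, 25.99 and 24.1 CPM in Lo19S cells and 4.99, 5.31 and 5.85 CPM in control cells. No 2 of the 4 groups overlapped, and the Lo19S libraries with DMSO lay above the control libraries that had received bortezomib. The lowest levels rest on 66, 57 and 63 counts in the control DMSO libraries. The log2 fold change of Lo19S over control was 2.25 (SE 0.106, adjusted p = 1.52e-22) under DMSO and 1.07 (SE 0.083, adjusted p = 3.56e-15) under bortezomib. Bortezomib raised UCHL1 by 0.70 (SE 0.075, adjusted p = 1.25e-11) in Lo19S cells and by 1.88 (SE 0.117, adjusted p = 8.39e-20) in control cells, a difference of -1.18 (SE 0.142, adjusted p = 4.98e-09). The calls of UCHL1 were kept under all 19 alternative settings for the states and the responses, and under the 18 tried for the difference.

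UCHL3, its close relative, which also cleaves the ubiquitin-like NEDD8 from small adducts, was at 30.1, 27.6 and 29.7 CPM in Lo19S cells with bortezomib and 35.5, 33.6 and 32.1 CPM in control cells with bortezomib. Under DMSO it was at 13.6, 14.4 and 13.9 CPM in Lo19S cells and 10.6, 10.2 and 13.2 CPM in control cells. As with USP14, the Lo19S libraries were the higher ones under DMSO and the lower ones under bortezomib, without overlap. The log2 fold change of Lo19S over control was 0.30 (SE 0.106, adjusted p = 0.0294) under DMSO and -0.21 (SE 0.082, adjusted p = 0.0389) under bortezomib. Bortezomib raised UCHL3 by 1.07 (SE 0.092, adjusted p = 8.69e-15) in Lo19S cells and by 1.58 (SE 0.094, adjusted p = 1.33e-20) in control cells, and the responses differed by -0.51 (SE 0.134, adjusted p = 0.00305). The call under DMSO was lost when control replicate 1 or 2 or any 1 Lo19S library of the DMSO groups was left out (adjusted p up to 0.152). The call under bortezomib was lost for the same replicates of the bortezomib groups (adjusted p up to 0.159) and with library totals (-0.094, adjusted p = 0.367). UCHL3 shares 30.4% of its exonic bases with a processed transcript on its own strand that had 64 counts over all libraries, against 2575 for UCHL3.

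BAP1, a nuclear UCH enzyme that removes ubiquitin from histone H2A and a tumour suppressor, was at 81.2, 80.3 and 82.95 CPM in Lo19S cells with bortezomib and 96.2, 96.2 and 94.8 CPM in control cells with bortezomib. BAP1 with DMSO stood at 67.97, 69.8 and 66.4 CPM in Lo19S cells and 65.4, 70.4 and 79.1 CPM in control cells. Lo19S and control libraries overlapped under DMSO and were apart under bortezomib. Bortezomib raised BAP1 by 0.26 (SE 0.056, adjusted p = 5.05e-05) in Lo19S cells and by 0.42 (SE 0.055, adjusted p = 2.13e-09) in control cells. The log2 fold change of Lo19S over control was -0.068 (SE 0.056, adjusted p = 0.418) under DMSO and -0.23 (SE 0.056, adjusted p = 0.000709) under bortezomib, and the difference of the responses, -0.16 (SE 0.079, adjusted p = 0.128), did not pass the test. With library totals no call of BAP1 was left, with responses of -0.026 in Lo19S and 0.042 in control cells and -0.119 between the states under bortezomib (adjusted p = 0.677, 0.487 and 0.0786).

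USP5, the enzyme that recycles free ubiquitin chains, was at 122, 119.5 and 119 CPM in Lo19S cells with bortezomib and 103, 105 and 103 CPM in control cells with bortezomib. USP5 with DMSO stood at 92.8, 96.1 and 87.1 CPM in Lo19S cells and 61.3, 64.2 and 69.6 CPM in control cells. Lo19S libraries lay above control libraries under both treatments. The log2 fold change of Lo19S over control was 0.51 (SE 0.052, adjusted p = 5.56e-11) under DMSO and 0.21 (SE 0.05, adjusted p = 0.00063) under bortezomib. Bortezomib raised USP5 by 0.38 (SE 0.049, adjusted p = 2.01e-09) in Lo19S cells and by 0.68 (SE 0.053, adjusted p = 2.74e-16) in control cells, a difference of -0.30 (SE 0.072, adjusted p = 0.00129). With library totals the rise in Lo19S cells was 0.092 with an adjusted p of 0.0831.

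USP13, the paralogue of USP5, was lower in both groups with the inhibitor. It was at 74.7, 73.5 and 76.2 CPM in Lo19S cells with bortezomib and 51.8, 51.8 and 49.5 CPM in control cells with bortezomib. USP13 with DMSO stood at 115, 114 and 112 CPM in Lo19S cells and 115, 120.3 and 117 CPM in control cells. The bortezomib libraries lay below all DMSO libraries, with Lo19S above control, and under DMSO the Lo19S libraries lay just below the control libraries. Bortezomib lowered USP13 by a log2 fold change of -0.60 (SE 0.048, adjusted p = 1.42e-15) in Lo19S cells and -1.20 (SE 0.052, adjusted p = 4.64e-26) in control cells. Set against control cells, Lo19S cells had a log2 fold change of 0.56 (SE 0.056, adjusted p = 1.58e-11) under bortezomib, against -0.048 (SE 0.045, adjusted p = 0.488) under DMSO, and the responses differed by 0.60 (SE 0.072, adjusted p = 4.2e-09).

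**Figure D2:**
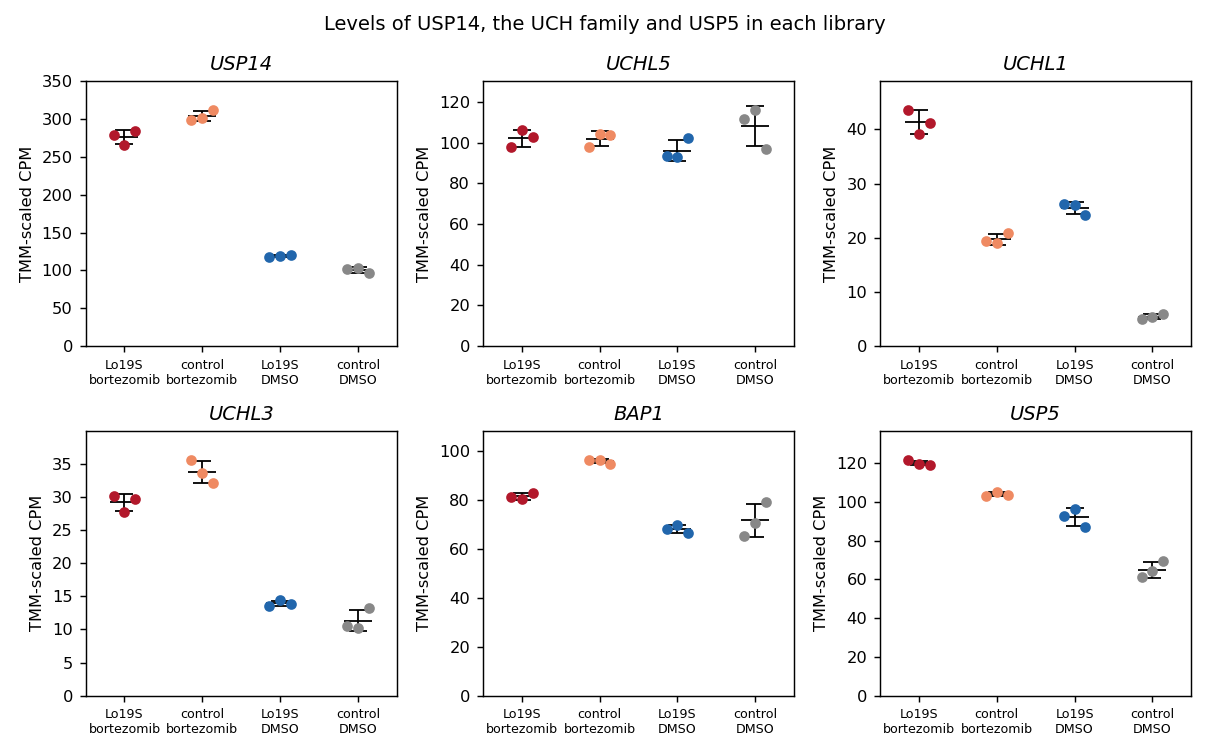
TMM-scaled CPM of USP14, UCHL5, UCHL1, UCHL3, BAP1 and USP5 in each of the 12 libraries, by group; points are libraries, the long bar is the group mean and the whiskers its SD (n = 3). UCHL1 separates all 4 groups, USP14 and UCHL3 are highest in control cells with bortezomib, and UCHL5 stays between 92.8 and 116 CPM in every library.

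USP14, UCHL1, UCHL3 and USP5 were the 4 members called higher in Lo19S than in control cells under DMSO, higher with bortezomib in both states and with a smaller bortezomib response in Lo19S cells. These calls are not independent, because the DMSO libraries enter each of these comparisons. A higher Lo19S level under DMSO lowers the difference of the responses by construction. Genes with this combination of calls were not counted over all genes, so it is not shown to be particular to these 4. Between the states under bortezomib they parted, with UCHL1 and USP5 higher in Lo19S cells and USP14 and UCHL3 lower. The UCHL3 call under DMSO also depended on single libraries, as given above. For these 4, the RefSeq sequence around their transcription starts (build GRCh38.p14, from 250 bases before the start to 50 after it, all on the plus strand) is shown, with matches to the motifs searched in capitals. UCHL3 has a pair of annotated starts, and the windows are UCHL1 chr4:41256678-41256977, USP5 chr12:6851900-6852199, USP14 chr18:158307-158606 and UCHL3 chr13:75549252-75549551 and chr13:75549541-75549840.
UCHL1: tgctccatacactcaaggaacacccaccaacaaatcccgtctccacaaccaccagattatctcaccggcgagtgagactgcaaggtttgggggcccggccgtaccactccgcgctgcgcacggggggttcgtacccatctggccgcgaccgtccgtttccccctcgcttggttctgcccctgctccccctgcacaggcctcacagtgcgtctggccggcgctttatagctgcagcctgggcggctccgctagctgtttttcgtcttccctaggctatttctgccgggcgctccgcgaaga
USP5: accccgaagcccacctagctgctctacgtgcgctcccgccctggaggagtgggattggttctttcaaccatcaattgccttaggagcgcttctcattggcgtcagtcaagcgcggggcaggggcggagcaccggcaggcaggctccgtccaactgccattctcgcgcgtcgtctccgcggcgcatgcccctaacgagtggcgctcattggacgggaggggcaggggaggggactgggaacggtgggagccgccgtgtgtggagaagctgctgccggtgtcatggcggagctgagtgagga
USP14: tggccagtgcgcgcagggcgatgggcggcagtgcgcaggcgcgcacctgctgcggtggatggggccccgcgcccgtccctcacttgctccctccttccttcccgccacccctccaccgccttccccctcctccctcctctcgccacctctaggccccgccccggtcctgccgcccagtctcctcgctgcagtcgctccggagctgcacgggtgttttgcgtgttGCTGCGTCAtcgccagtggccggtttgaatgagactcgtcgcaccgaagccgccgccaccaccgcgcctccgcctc
UCHL3, upstream start: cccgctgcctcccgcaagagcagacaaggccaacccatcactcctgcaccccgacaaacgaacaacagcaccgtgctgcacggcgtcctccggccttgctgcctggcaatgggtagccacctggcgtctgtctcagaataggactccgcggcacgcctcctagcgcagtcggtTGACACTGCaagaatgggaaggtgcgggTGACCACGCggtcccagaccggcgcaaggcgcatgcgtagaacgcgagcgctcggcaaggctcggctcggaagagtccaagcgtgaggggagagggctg
UCHL3, downstream start: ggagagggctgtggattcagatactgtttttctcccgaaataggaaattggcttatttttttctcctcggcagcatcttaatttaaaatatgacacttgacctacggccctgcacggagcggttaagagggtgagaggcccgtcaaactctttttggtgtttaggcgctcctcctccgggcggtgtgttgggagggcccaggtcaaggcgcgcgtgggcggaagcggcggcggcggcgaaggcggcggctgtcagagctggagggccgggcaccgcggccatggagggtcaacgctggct
The motifs were searched on both strands: TGACNNNGC, the core of the antioxidant response element bound by NRF1 and NRF2 with small MAF proteins, TGACGTCA, the palindrome bound by CREB and ATF factors, and GAANNTTC and TTCNNGAA, both arrangements of paired heat shock factor units. The capitals mark TGACNNNGC, which was found in the upstream UCHL3 window as TGACACTGC and TGACCACGC, with first bases 77 and 49 bases before the start, and in the USP14 window on the other strand as GCTGCGTCA, with its first base 26 bases before the start. None of the 4 motifs was in the windows of UCHL1 and USP5 or in the downstream UCHL3 window. Windows were at hand for 38 of the 48 members, and 7 of them (18.4%) held TGACNNNGC, namely UCHL3, UCHL5, USP2, USP13, USP14, USP38 and USP54, against 18.1% of 14988 protein-coding genes. GAANNTTC was in the window of USP39 and TTCNNGAA in that of USP16, 2.63% of members each against 7.36% and 8.86% of all genes, and TGACGTCA was in none of the 38, against 3.07%.

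The first comparison asked how the lowered 19S state alone, without the inhibitor, went with deubiquitinase RNA. Under DMSO, 8 of the 48 genes were higher in Lo19S than in control cells (16.7%, against 11.7% of all genes tested) and 5 were lower (10.4%, against 13.0%), with a median log2 fold change of -0.03 over the 48 genes and of 0 over all genes. The higher genes were UCHL1, USP5, UCHL3 and USP14, followed by USP54, USP40, USP30 and USP15. The lower ones were USP1, USP2, USP37, USP31 and UCHL5. UCHL1 was the 1 gene called and at least 2-fold higher (2.08%, against 1.22% of all genes), and the 13 called genes made up 27.1% of the 48, against 24.7% of all genes.

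USP54, long classed as catalytically inactive, was at 87.1, 87.7 and 84.5 CPM in Lo19S cells with DMSO and 73.05, 73.7 and 75.5 CPM in control cells with DMSO, without overlap, a log2 fold change of 0.23 (SE 0.05, adjusted p = 0.000457). USP1, which with its cofactor WDR48 takes ubiquitin off PCNA and FANCD2, was at 69.5, 66.01 and 64.5 CPM in Lo19S cells and 87.9, 89.9 and 76.6 CPM in control cells. The log2 fold change of USP1 was -0.35 (SE 0.055, adjusted p = 2.21e-06), and the Lo19S libraries all lay below the control libraries. USP2, which acts on cyclin D1 and MDM2, was at 7.89, 8.18 and 8.98 CPM in Lo19S cells and 10.6, 8.94 and 12.1 CPM in control cells, a log2 fold change of -0.34 (SE 0.128, adjusted p = 0.0432). The groups overlapped in USP2, with control replicate 2 below the highest Lo19S library. USP37, which stabilises cyclin A, was at 23.5, 26.5 and 27.04 CPM in Lo19S cells and 33.8, 32.03 and 27.2 CPM in control cells, a log2 fold change of -0.28 (SE 0.087, adjusted p = 0.0128). USP31 was at 25.3, 23.4 and 25.01 CPM in Lo19S cells and 29.6, 26.9 and 29.2 CPM in control cells, a log2 fold change of -0.22 (SE 0.077, adjusted p = 0.0293). For both genes the Lo19S libraries lay below the control libraries, for USP37 by a narrow margin at replicate 3. The log2 fold changes of USP40, USP15 and USP30, which sits on the outer mitochondrial membrane, were 0.20, 0.15 and 0.20, with adjusted p-values of 0.0282, 0.0116 and 0.0471. USP1, USP5, USP14, USP54 and UCHL1 kept their calls under all 19 alternative settings. The other calls were lost when single libraries of the DMSO groups were left out, for UCHL3 and UCHL5 as given above. USP2 lost its call without control replicate 1 or 3 or Lo19S replicate 1 or 2 (adjusted p up to 0.165), and USP31 without control replicate 1 or Lo19S replicate 2 or 3 (up to 0.136). USP37 lost it without replicate 1 of either group (up to 0.12), and USP15 without Lo19S replicate 1 or 3 (up to 0.0632). For USP40 it was control replicate 2 or 3 or Lo19S replicate 1 or 2 (up to 0.125), and for USP30 any of the 12 libraries but control DMSO replicate 1 (up to 0.204). Calls also ended under other settings. With DESeq2 UCHL3, USP2, USP30, USP31, USP37 and USP40 were not called (adjusted p from 0.0728 to 0.147), and without a filter UCHL3, USP15, USP30 and USP40 were not (0.0945 to 0.173). In a fit of only the DMSO groups UCHL3, UCHL5, USP2, USP30 and USP31 were not called (0.0523 to 0.0725), and with library totals USP2 was not (0.0577). With a library left out, 4 to 7 genes were called higher, 4 of them without Lo19S DMSO replicate 1 and 5 without Lo19S DMSO replicate 2 or 3 or control DMSO replicate 2. Genes called lower numbered 2 to 6, with 2 without control DMSO replicate 1 or Lo19S DMSO replicate 1 or 2. Over all genes 2840 to 4603 were called in these fits, against 3628 with all libraries.

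The next comparisons asked what bortezomib did in each state. In Lo19S cells 32 of the 48 genes were higher with bortezomib than with DMSO (66.7%, against 37.8% of all genes tested) and 7 were lower (14.6%, against 39.7%), a split that was 22 to 14 with library totals. In control cells 32 were higher (66.7%, against 39.2%) and 8 lower (16.7%, against 42.2%), and this direction flipped to 18 higher and 20 lower with library totals, which move the median of all genes to -0.424 in control and -0.31 in Lo19S cells. Of all genes, 5561 were higher and 5847 lower in Lo19S cells (3731 and 7918 with library totals), and 5761 were higher and 6215 lower in control cells (3717 and 8452 with library totals). The median log2 fold change of the 48 genes was 0.38 in Lo19S and 0.30 in control cells, against -0.02 and -0.04 over all genes. Genes called and at least 2-fold higher numbered 9 in each state (18.8%, against 10.3% of all genes in Lo19S and 14.5% in control cells). Those at least 2-fold lower numbered 1 in Lo19S cells (2.08%, against 18.5%) and 2 in control cells (4.17%, against 22.1%). The states share no libraries, and 30 genes were called higher in both, 93.8% of the 32 of each state. Called lower in both were 6 genes, USP13, USP18, USP21, USP22, USP28 and USP40, which are 85.7% of the 7 in Lo19S and 75.0% of the 8 in control cells. No member was called in opposite directions. These overlaps were not counted over all genes, so the agreement between the states is not shown to be particular to the 48 genes.

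**Figure D3:**
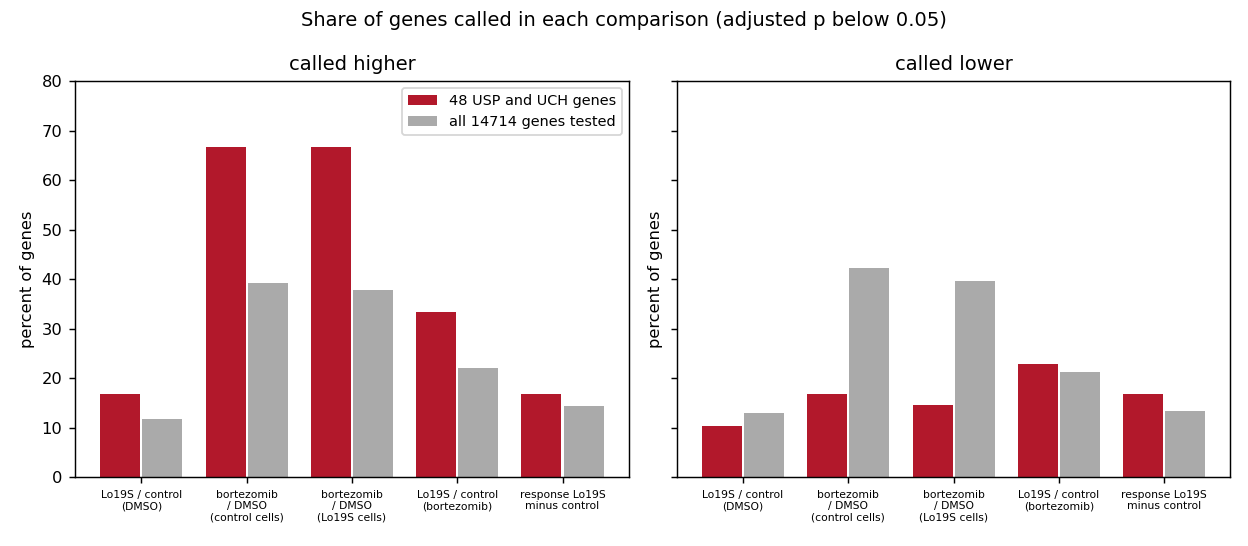
Percent of genes called higher (left panel) and lower (right panel) in each comparison, in red for the 48 USP and UCH genes and in grey for all 14714 genes tested. For bortezomib against DMSO the red bars stand at 66.7% higher in both states, against 39.2% of all genes in control and 37.8% in Lo19S cells. With library totals the members' split was 18 higher to 20 lower in control cells (37.5% and 41.7%, against 25.3% and 57.4% of all genes). In Lo19S cells that split was 22 to 14 (45.8% and 29.2%, against 25.4% and 53.8% of all genes).

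The largest rise was that of USP53, a USP-fold protein of cell junctions. It was at 212, 208 and 209 CPM in Lo19S cells with bortezomib and 265, 256 and 245 CPM in control cells with bortezomib. USP53 with DMSO stood at 53.4, 54.3 and 52.3 CPM in Lo19S cells and 58.1, 59.6 and 51.9 CPM in control cells. Bortezomib raised it by 1.98 (SE 0.049, adjusted p = 8.06e-36) on the log2 scale in Lo19S cells and 2.17 (SE 0.048, adjusted p = 2.88e-38) in control cells, and every bortezomib library lay above every DMSO library. USP12, which like USP1 is switched on by WDR48, was at 55.9, 61.6 and 63.6 CPM in Lo19S cells with bortezomib and 65.96, 67.9 and 70.98 CPM in control cells with bortezomib. USP12 with DMSO stood at 19.6, 19.8 and 20.5 CPM in Lo19S cells and 21.7, 22.9 and 19.1 CPM in control cells. The rise of USP12 was 1.61 (SE 0.073, adjusted p = 7.41e-25) in Lo19S cells and 1.69 (SE 0.072, adjusted p = 2.58e-26) in control cells. Its close paralogue USP46, which WDR48 also activates, was among the 4 genes called in no comparison. It was at 34.8, 31.6 and 32.8 CPM in Lo19S cells with bortezomib and 32.5, 37.8 and 33.9 CPM in control cells with bortezomib. USP46 with DMSO stood at 34.8, 34.9 and 31.6 CPM in Lo19S cells and 37.8, 34.7 and 35.4 CPM in control cells, and the ranges overlapped between the states under both treatments.

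USP36, the nucleolar enzyme, was at 120.5, 125 and 131 CPM in Lo19S cells with bortezomib and 196, 201 and 190.0 CPM in control cells with bortezomib. USP36 with DMSO stood at 59.4, 57.7 and 57.4 CPM in Lo19S cells and 57.03, 64.2 and 66.6 CPM in control cells. All control bortezomib libraries lay above all Lo19S bortezomib libraries, and the DMSO groups were lower than both and overlapped each other. The rise was 1.11 (SE 0.053, adjusted p = 4.18e-24) in Lo19S cells and 1.65 (SE 0.051, adjusted p = 3.39e-32) in control cells. USP38 was at 96.4, 97.01 and 102 CPM in Lo19S cells with bortezomib and 98.1, 105 and 93.5 CPM in control cells with bortezomib. USP38 with DMSO stood at 38.5, 38.2 and 39.1 CPM in Lo19S cells and 34.2, 38.1 and 35.1 CPM in control cells. Bortezomib raised USP38 by 1.36 (SE 0.058, adjusted p = 6.14e-26) in Lo19S cells and 1.47 (SE 0.059, adjusted p = 3.45e-27) in control cells. The bortezomib libraries of both states overlapped in USP38. USP47, which acts on DNA polymerase beta, was at 170.2, 165 and 189 CPM in Lo19S cells with bortezomib and 199, 204 and 203 CPM in control cells with bortezomib. USP47 with DMSO stood at 73.1, 76.8 and 79.4 CPM in Lo19S cells and 71.3, 71.3 and 68.9 CPM in control cells. In USP47 the control libraries were the higher ones under bortezomib.

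Members that fell were led by USP18, the interferon-induced enzyme that removes the ubiquitin-like ISG15. It was at 2.51, 1.46 and 1.44 CPM in Lo19S cells with bortezomib and 1.71, 1.34 and 0.834 CPM in control cells with bortezomib. USP18 with DMSO stood at 5.10, 5.34 and 4.38 CPM in Lo19S cells and 4.83, 3.91 and 5.58 CPM in control cells. These levels rest on few reads, 21, 10 and 20 counts in the Lo19S bortezomib libraries, 14, 12 and 7 counts in the control bortezomib libraries, 64, 62 and 41 counts in the Lo19S DMSO libraries and 64, 42 and 60 counts in the control DMSO libraries. Every bortezomib library was below every DMSO library, and the log2 fold change was -1.49 (SE 0.23, adjusted p = 1.2e-07) in Lo19S cells and -1.88 (SE 0.258, adjusted p = 7.02e-09) in control cells. The difference between the states in USP18 did not pass the test, with 0.058 (SE 0.176, adjusted p = 0.855) under DMSO and 0.44 (SE 0.331, adjusted p = 0.293) under bortezomib. USP22 was at 173, 169.7 and 165 CPM in Lo19S cells with bortezomib and 135, 154 and 149 CPM in control cells with bortezomib. USP22 with DMSO stood at 228, 235 and 222 CPM in Lo19S cells and 230.5, 224 and 242 CPM in control cells. Its log2 fold change was -0.44 (SE 0.043, adjusted p = 9.06e-13) in Lo19S cells and -0.67 (SE 0.044, adjusted p = 8.01e-19) in control cells, and the bortezomib groups of both states were separate.

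USP28, a nuclear enzyme known for stabilising MYC, was at 54.8, 53.99 and 60.2 CPM in Lo19S cells with bortezomib and 51.2, 50.3 and 47.2 CPM in control cells with bortezomib. USP28 with DMSO stood at 65.3, 66.95 and 65.8 CPM in Lo19S cells and 71.99, 69.6 and 69.1 CPM in control cells. The log2 fold changes were -0.22 in Lo19S cells (adjusted p = 0.000717) and -0.50 in control cells (adjusted p = 1.09e-10). No bortezomib library of USP28 reached a DMSO library of its own state. USP21, which acts on histone H2A, was at 41.2, 44.2 and 45.9 CPM in Lo19S cells with bortezomib and 45.4, 48.1 and 45.97 CPM in control cells with bortezomib. USP21 with DMSO stood at 63.4, 57.3 and 60.1 CPM in Lo19S cells and 56.3, 53.5 and 59.3 CPM in control cells. USP21 had log2 fold changes of -0.46 (adjusted p = 8.75e-09) in Lo19S cells and -0.28 (adjusted p = 0.00012) in control cells. In USP21, too, the treatments were separate within each state. USP40 was at 38.8, 36.1 and 32.7 CPM in Lo19S cells with bortezomib and 26.6, 30.6 and 28.2 CPM in control cells with bortezomib. USP40 with DMSO stood at 43.1, 44.5 and 41.8 CPM in Lo19S cells and 39.7, 37.6 and 35.3 CPM in control cells. USP40 had log2 fold changes of -0.28 (adjusted p = 0.000446) in Lo19S cells and -0.40 (adjusted p = 8.64e-06) in control cells. Every bortezomib library of USP40 lay below the DMSO libraries of its state. USP51, the member with the fewest reads, was at 1.43, 1.76 and 1.44 CPM in Lo19S cells with bortezomib and 1.47, 1.45 and 1.07 CPM in control cells with bortezomib. USP51 with DMSO stood at 1.75, 1.89 and 1.92 CPM in Lo19S cells and 1.96, 1.96 and 3.07 CPM in control cells. It was called in control cells, at -0.79 (SE 0.293, adjusted p = 0.0128), and not in Lo19S cells, at -0.29 (SE 0.29, adjusted p = 0.369), and the responses differed by 0.50 (SE 0.417, adjusted p = 0.403), which did not pass the test.

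**Figure D4:**
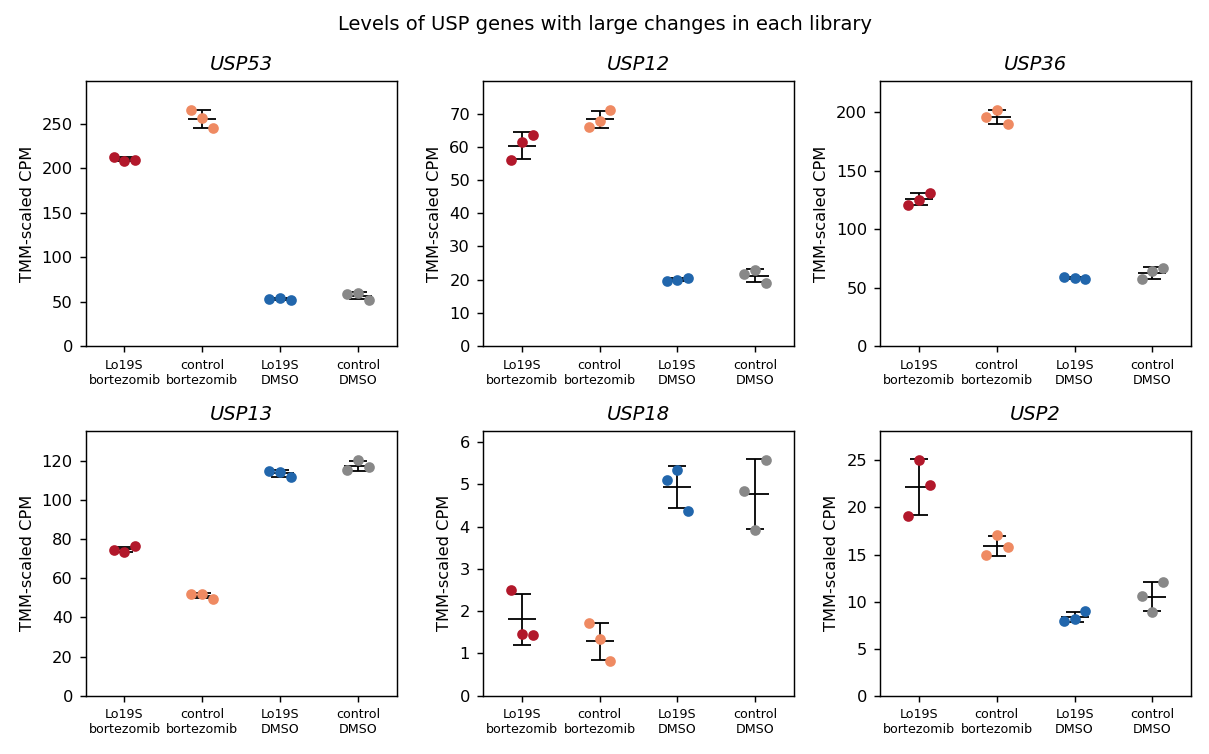
TMM-scaled CPM of USP53, USP12, USP36, USP13, USP18 and USP2 in each of the 12 libraries, by group; points are libraries, the long bar is the group mean and the whiskers its SD (n = 3). USP53, USP12 and USP36 are higher in every bortezomib library than in every DMSO library, USP13 and USP18 are lower in every one, and USP2 is highest in Lo19S cells with bortezomib.

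By role, 6 of 7 members with a part in DNA damage, replication or the cell cycle rose in Lo19S cells and 5 of 7 in control cells, with none called lower in either. These are shares of 85.7% and 71.4%, against 37.8% of all genes in Lo19S and 39.2% in control cells. With library totals 4 of the 7 were called higher and 1 lower in Lo19S cells, and 4 higher and 3 lower in control cells. Of 8 members that act on transcription factors and other short-lived regulators, 7 rose and 1 fell in Lo19S cells (87.5% and 12.5%), and 6 rose and 1 fell in control cells (75.0% and 12.5%). With library totals they were 5 higher and 1 lower in Lo19S cells, and 3 higher and 3 lower in control cells. Among 8 USP enzymes of histones and chromatin 4 rose and 2 fell in Lo19S cells, and 5 rose and 3 fell in control cells (62.5% higher and 37.5% lower). BAP1, counted here with the UCH enzymes, is not among these 8. With library totals they were 4 higher and 3 lower in each state. Of 7 members at endosomes, the endoplasmic reticulum or mitochondria 5 rose in Lo19S cells (71.4%) and 6 in control cells (85.7%), and none was called lower. With library totals these became 3 higher and 1 lower in Lo19S cells, and 1 higher and 2 lower in control cells. Over all genes, library totals gave 25.4% higher and 53.8% lower in Lo19S cells, and 25.3% higher and 57.4% lower in control cells. USP1 rose by 0.87 in Lo19S cells (adjusted p = 7.17e-20) and 0.87 in control cells (adjusted p = 9.77e-21). USP9X, which keeps MCL1 from being degraded, rose by 0.86 (adjusted p = 3.94e-26) and 0.84 (adjusted p = 8.06e-26), and USP8, an endosomal enzyme that acts on receptors such as EGFR, by 0.70 (adjusted p = 2.41e-15) and 0.72 (adjusted p = 6.65e-16) in the same order of states. Without single libraries the calls of USP11 (control DMSO replicate 1, adjusted p = 0.0503), USP25 (control DMSO replicate 3, 0.0537) and USP51 (control DMSO or bortezomib replicate 3, up to 0.124) were lost in control cells. In Lo19S cells those of USP37 (Lo19S DMSO replicate 1 or bortezomib replicate 3, up to 0.18) and USP39 (Lo19S bortezomib replicate 2, 0.115) were lost. With library totals 22 of the 32 rises in Lo19S cells were still called. Of the rest, 6 stayed positive without a call (USP5, USP10, USP11, USP24, USP32 and USP34), and 4 turned negative without a call (BAP1, USP20, USP37 and USP54). In control cells 18 of the 32 rises were still called with library totals, and 4 stayed positive without a call (BAP1, USP2, USP4 and USP30). A further 6 turned negative without a call (USP20, USP31, USP32, USP33, USP34 and USP49). The last 4 were called lower, USP10 at -0.153 (adjusted p = 0.00375), USP11 at -0.174 (0.0157), USP25 at -0.204 (0.00207) and USP54 at -0.176 (0.00178). Without a filter USP11, USP25 and USP31 lost their calls in control cells (adjusted p = 0.122, 0.194 and 0.0755), and USP37 its call in Lo19S cells (0.0513). With DESeq2 USP51 lost it in control cells (0.0876) and USP37 in Lo19S cells (0.0787).

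Under bortezomib the states were compared once more. Of the 48 genes, 16 were higher in Lo19S than in control cells (33.3%, against 22.0% of all genes tested) and 11 were lower (22.9%, against 21.2%), together 56.2% against 43.1%, with a median of 0.04 over the 48 genes and of 0 over all genes. With library totals, which move the median of all genes to 0.115, the split was 21 higher to 4 lower, and that of all genes was 4920 to 1883, against 3230 to 3119 with TMM factors. The higher genes were led by UCHL1, USP13 and USP2, with USP25, USP40, USP32, USP54, USP5, USP22, USP24, USP28, USP3, USP48, USP7, USP15 and USP9X between 0.09 and 0.41. USP2 was at 19.1, 25.02 and 22.4 CPM in Lo19S cells with bortezomib and 14.9, 17.04 and 15.8 CPM in control cells with bortezomib, without overlap, a log2 fold change of 0.47 (SE 0.108, adjusted p = 0.00034). USP25, a paralogue of USP28 that acts at the endoplasmic reticulum, was at 82.3, 85.2 and 86.5 CPM in Lo19S cells with bortezomib and 61.7, 63.4 and 66.5 CPM in control cells with bortezomib. USP25 with DMSO stood at 53.8, 54.6 and 59.3 CPM in Lo19S cells and 58.9, 58.7 and 51.5 CPM in control cells. Its Lo19S bortezomib libraries were the highest of all, and the log2 fold change over control was 0.41 (SE 0.059, adjusted p = 1.26e-07). The corresponding value for USP40 was 0.31 (SE 0.081, adjusted p = 0.00126).

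The lower genes were led by USP36, at -0.64 (SE 0.048, adjusted p = 1.1e-15), and included USP14, UCHL3, USP53 and USP12 among those that bortezomib had raised most. USP1 was at 118, 125 and 124 CPM in Lo19S cells with bortezomib and 162, 149 and 154 CPM in control cells with bortezomib, a log2 fold change of -0.34 (SE 0.05, adjusted p = 2.4e-07), and it was the 1 gene called lower in Lo19S cells under both treatments. USP53 had a log2 fold change of -0.28 (SE 0.042, adjusted p = 2.79e-07) in this comparison. USP45, which acts on the nuclease partner ERCC1, was at 20.9, 20.3 and 23.1 CPM in Lo19S cells with bortezomib and 27.1, 27.3 and 23.7 CPM in control cells with bortezomib. USP45 with DMSO stood at 12.03, 11.9 and 14.8 CPM in Lo19S cells and 13.4, 14.99 and 11.5 CPM in control cells. Under bortezomib its log2 fold change was -0.26 (SE 0.097, adjusted p = 0.0237), with the Lo19S libraries below the control libraries. USP16, another histone H2A enzyme, was at 119, 114 and 126 CPM in Lo19S cells with bortezomib and 141, 138 and 145 CPM in control cells with bortezomib. USP16 with DMSO stood at 72.8, 70.8 and 72.5 CPM in Lo19S cells and 75.6, 71.8 and 69.6 CPM in control cells. Its log2 fold change under bortezomib was -0.23 (SE 0.048, adjusted p = 8.34e-05). For USP1, USP16, USP36, USP45 and USP53 the bortezomib libraries of Lo19S cells lay below those of control cells without overlap.

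The comparisons of the states under DMSO and under bortezomib share no libraries. Called higher in Lo19S cells in both were 5 genes, UCHL1, USP5, USP15, USP40 and USP54, 31.2% of the 16 under bortezomib and 62.5% of the 8 under DMSO. USP1 was called lower in both, 9.09% of the 11 under bortezomib and 20.0% of the 5 under DMSO. A further 3 changed sides: USP14 and UCHL3 were lower in Lo19S cells under bortezomib and higher under DMSO, and USP2 was higher under bortezomib and lower under DMSO. Each of these 3 changes rests on a call that some alternative settings did not keep. Under DMSO these were the calls of UCHL3 and USP2, and under bortezomib those of UCHL3 and USP14. The overlap of these comparisons was likewise not counted over all genes. Leaving out single libraries of the bortezomib groups ended further calls under bortezomib, beside that of UCHL3 given above. Those were USP12 (control replicate 2 or 3 or Lo19S replicate 1, adjusted p up to 0.163), USP15 (replicate 2 of either group, up to 0.0931) and USP28 (replicate 3 of either group, up to 0.138). USP3 lost its call without replicate 2 or 3 of either group (up to 0.254), USP42 without control replicate 3 (0.0583) and USP45 without replicate 1 or 2 of either group (up to 0.108). USP48 lost it without control replicate 1 or 3 or Lo19S replicate 3 (up to 0.262), and USP9X without control replicate 1 or 3 or Lo19S replicate 2 or 3 (up to 0.161). With library totals BAP1, UCHL3, USP12, USP14, USP42, USP45 and USP47 were no longer called lower (adjusted p from 0.0786 to 0.602). With DESeq2 UCHL3, USP3, USP9X, USP12, USP42, USP45 and USP48 were not called (0.0501 to 0.144), and without a filter UCHL3, USP3, USP9X and USP15 were not (0.0709 to 0.151). USP3 and USP9X were also lost with relative log expression factors (0.0582 and 0.0938) and with the replicate block (0.0528 and 0.0511). In all, 15 of the 27 genes kept their calls under all alternative settings tried for this comparison. USP3 shares 22.7% of its exonic bases with USP3-AS1 on the other strand, which had 297 counts against 4259 for USP3.

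The last comparison asked whether the bortezomib response differed between the states. It was higher in Lo19S than in control cells for 8 of the 48 genes (16.7%, against 14.4% of all genes tested) and lower for 8 (16.7%, against 13.4%), with a median difference of 0.01 over both the 48 genes and all genes. With library totals the split was 14 higher to 6 lower, with the median of all genes at 0.104, and for all genes 3331 to 1257, against 2126 to 1968 with TMM factors. The 16 genes were 33.3% of the 48, against 27.8% of all genes. In 11 of the 16 the response of Lo19S cells was the one closer to 0: the rises of UCHL1, USP36, UCHL3, USP14, USP47, USP5, USP16 and USP53 were smaller there, and so were the falls of USP13, USP28 and USP22. In the other 5, USP2, USP25, USP37, USP24 and USP7, it was the one farther from 0. The same count was not made over all genes, so it describes only these 16 and not a trait particular to them.

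USP2 had the largest positive difference, 0.81 (SE 0.167, adjusted p = 0.000168), from responses of 1.41 (SE 0.115, adjusted p = 2.02e-15) in Lo19S cells and 0.60 (SE 0.119, adjusted p = 1.3e-05) in control cells. USP2 was called lower in Lo19S cells under DMSO, and a lower Lo19S level there raises the difference by construction. With library totals the response of USP2 in control cells was 0.217, with an adjusted p of 0.0884. USP25 followed with 0.43 (SE 0.084, adjusted p = 8.22e-05), from 0.61 (SE 0.058, adjusted p = 3.32e-13) in Lo19S cells and 0.18 (SE 0.061, adjusted p = 0.00709) in control cells, where library totals turned the rise into the called fall given above. USP24, a large enzyme related to USP9X, was at 129, 124 and 127 CPM in Lo19S cells with bortezomib and 111, 111 and 109 CPM in control cells with bortezomib. USP24 with DMSO stood at 95.9, 104 and 107 CPM in Lo19S cells and 111, 114 and 105 CPM in control cells. It rose in Lo19S cells by 0.31 (SE 0.048, adjusted p = 1.14e-07), had a response of 0.004 (SE 0.048, adjusted p = 0.948) in control cells, which was not called, and differed by 0.31 (SE 0.068, adjusted p = 0.00045). With library totals its response in Lo19S cells was 0.021 and not called (adjusted p = 0.688). USP37 was at 26.2, 31.2 and 32.9 CPM in Lo19S cells with bortezomib and 30.7, 30.3 and 25.5 CPM in control cells with bortezomib, and its responses differed by 0.36 (SE 0.127, adjusted p = 0.0299). Like USP2 it was called lower in Lo19S cells under DMSO, which raises this difference by construction. USP36 had the second largest negative difference after UCHL1, -0.54 (SE 0.074, adjusted p = 1.22e-07), and USP47 had -0.31 (SE 0.069, adjusted p = 0.000497). USP16 lost its call without Lo19S bortezomib replicate 2 (adjusted p = 0.0572), USP28 without Lo19S bortezomib replicate 3 (0.0583) and USP7 without control DMSO replicate 1 or Lo19S bortezomib replicate 3 (up to 0.0537). USP37 lost it without replicate 1 of either DMSO group, control bortezomib replicate 3 or Lo19S bortezomib replicate 2 or 3 (up to 0.168). For USP53 it was control DMSO replicate 3, Lo19S DMSO replicate 1 or 2, control bortezomib replicate 1 or 2 or Lo19S bortezomib replicate 2 or 3 (up to 0.0989). USP16 and USP53 also lost their calls with library totals (-0.128, adjusted p = 0.169, and -0.103, adjusted p = 0.279) and without a filter (adjusted p = 0.0645 and 0.123). With DESeq2 USP53 and USP37 lost theirs (adjusted p = 0.0587 and 0.111). Without Lo19S bortezomib replicate 3 the number called higher was 5, while over all genes it was 1806, against 2126 with all libraries. The other 11 genes kept their calls under all alternative settings tried for this comparison. USP37 shares 32.8% of its exonic bases with VIL1 on the other strand, which had 5 counts in all.

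**Figure D5:**
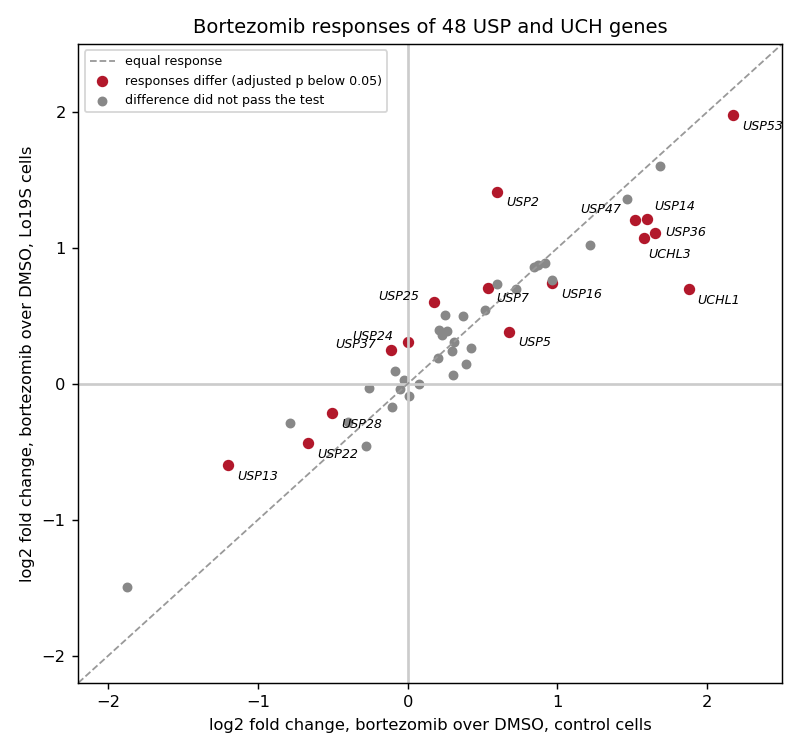
Log2 fold change of bortezomib over DMSO in Lo19S cells (vertical) against that in control cells (horizontal) for the 48 genes, with the dashed line at equal response; red points are the 16 genes whose responses differ at an adjusted p below 0.05. UCHL1, USP36, UCHL3 and USP14 lie below the line on the right, USP2 and USP25 above it, and USP13 above it on the left.

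A list of 33 other deubiquitinases and related proteins, most of them of the OTU, JAMM, Josephin and MINDY families, was read beside these genes. Of the 29 tested, 22 were higher and 6 lower with bortezomib in Lo19S cells (75.9% and 20.7%, against 37.8% and 39.7% of all genes), with a median of 0.66. In control cells 22 were higher and 5 lower (75.9% and 17.2%, against 39.2% and 42.2%), with a median of 0.63. With library totals these counts were 18 and 6 in Lo19S cells (62.1% and 20.7%, against 25.4% and 53.8% of all genes). In control cells they were then 17 and 8 (58.6% and 27.6%, against 25.3% and 57.4%). The largest rises were those of YOD1, a p97-associated OTU enzyme, at 2.09 in Lo19S and 3.04 in control cells, TNFAIP3, the NF-kappaB feedback inhibitor A20, at 2.40 and 2.86, and CYLD, a USP-family enzyme without a numbered USP symbol, at 1.69 and 1.87. The largest falls were those of PAN2, a poly(A) nuclease with an inactive USP-like domain, at -1.24 in Lo19S and -1.69 in control cells, MINDY1, at -1.14 and -1.65, and BRCC3, at -0.94 and -1.16. Lo19S against control gave 6 higher and 6 lower under DMSO (20.7% each, against 11.7% and 13.0% of all genes), led by JOSD2 at 1.08 and PSMD14. Under bortezomib there were 6 higher and 10 lower (20.7% and 34.5%, against 22.0% and 21.2%). That split was 8 to 7 with library totals (27.6% and 24.1%, against 33.4% and 12.8%). The responses differed in 11 genes, 2 higher and 9 lower in Lo19S cells (6.9% and 31.0%, against 14.4% and 13.4%). With library totals these were 4 and 6 (13.8% and 20.7%, against 22.6% and 8.54%). Of 14 binding partners of USP and UCH enzymes 13 were tested. With bortezomib 9 rose in each state (69.2%, against 37.8% of all genes in Lo19S and 39.2% in control cells). Among them was WDR48, the activator of USP1, USP12 and USP46, which rose by 0.93 in Lo19S and 1.18 in control cells. Those that fell numbered 3 in Lo19S cells (23.1%, against 39.7%) and 2 in control cells (15.4%, against 42.2%), among them GMPS, a partner of USP7, at -0.37 and -0.65. Under DMSO, ADRM1 was the 1 partner called higher in Lo19S cells and GMPS, at -0.13 with an adjusted p of 0.0232, the 1 called lower (7.69% each, against 11.7% and 13.0%). Between the states under bortezomib 1 partner was higher and 5 were lower in Lo19S cells (7.69% and 38.5%, against 22.0% and 21.2%). The difference of the responses was higher for 1 partner and lower for 6 (7.69% and 46.2%, against 14.4% and 13.4%). With library totals the partners split 3 higher to 6 lower with bortezomib in Lo19S cells (23.1% and 46.2%, against 25.4% and 53.8% of all genes). In control cells they split 6 to 6 (46.2% each, against 25.3% and 57.4%). None was then called lower between the states under DMSO. Between the states under bortezomib the split was 4 to 1 (30.8% and 7.69%, against 33.4% and 12.8%). For the difference of the responses it was 3 to 3 (23.1% each, against 22.6% and 8.54%).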

How the data were processed

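T47D cells gave 12 RNA libraries, 3 in each of 4 groups, which were set by the sample labels. Each library has 1 deposited file of raw read counts per gene. The kit was stranded and selected polyA RNA, per the labels' protocols, and GRCh37, STAR 2.5.4b and featureCounts 1.6.1 are named, per the submitters' processing notes. Whether reads were counted by strand, and how reads with several matches were counted, is not given in the sources used here. Counts of members with overlapping genes or near-identical copies are uncertain. Among them is USP34, which shares 18.0% of its exonic bases with AHSA2P on the other strand. AHSA2P had 7956 counts over all libraries, against 17360 for USP34.

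Identifiers were matched to symbols for 51996 of 57773 genes from the table at hand, and 52338 had a name once GENCODE release 29 was added. GENCODE release 29 was made for another build and gave only names, biotypes, exon lengths and exon overlaps. All rows named a gene. The members and gene lists were chosen with earlier results of these data known.

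Counts were filtered with filterByExpr, which left 14714 genes and all 48 members, scaled with TMM factors and fitted over all 12 libraries with 1 coefficient per group, using edgeR 4.0.16 (R 4.3.3) and its robust quasi-likelihood test. Every adjusted p in the text comes from this test, with Benjamini-Hochberg adjustment over all genes tested, unless another setting is named. Standard errors (SE) were obtained by dividing the size of the log2 fold change by the root of F, and are approximate. The 5 comparisons were Lo19S against control under DMSO and under bortezomib, bortezomib against DMSO in Lo19S and in control cells, and the difference of the responses, Lo19S minus control. The code was tested on simulated counts. Depth ran from 7376597 to 15003480 counts per library.

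Genes were named by rule: USP14, UCHL5, UCHL1, UCHL3 and BAP1, and in each comparison up to 5 called members with the largest change in each direction; other members appear by role, USP46 as a paralogue of USP12 chosen after its values were seen. The 19 alternatives were relative log expression size factors, library totals, no filter, a stricter filter, a replicate block, fits of only the groups compared (not for the difference of the responses, which needs all 4), DESeq2 1.42.0 and 12 fits with a library left out. Promoter windows were taken from RefSeq (GRCh38.p14).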

Additional observations from a re-analysis of the deposited data

Results flagged for a closer look

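The bortezomib response (log2 fold change over DMSO) differed between Lo19S and control cells by the test of the difference itself in 16 of the 48 genes, against 27.8% of all genes tested. The values below are Lo19S minus control, with the adjusted p of edgeR's quasi-likelihood test. Smaller rises in Lo19S cells were found for UCHL1 (-1.18, adjusted p = 4.98e-09), USP36 (-0.54, 1.22e-07), UCHL3 (-0.51, 0.00305), USP14 (-0.38, 9.77e-07), USP47 (-0.31, 0.000497), USP5 (-0.30, 0.00129), USP16 (-0.22, 0.0143) and USP53 (-0.20, 0.0295). Smaller falls were found for USP13 (0.60, 4.2e-09), USP28 (0.29, 0.00656) and USP22 (0.23, 0.00392). USP2 (0.81, 0.000168), USP25 (0.43, 8.22e-05) and USP7 (0.17, 0.0152) rose more in Lo19S cells. USP24 (0.31, 0.00045) and USP37 (0.36, 0.0299) were called higher with bortezomib in Lo19S cells, with responses of 0.004 and -0.111 in control cells that did not pass the test. In UCHL1 the DMSO levels already differed, at 25.4 ± 1.13 CPM in Lo19S cells and 5.38 ± 0.439 CPM in control cells (SD, n = 3 each). DMSO levels enter the difference by construction. They were also called higher in Lo19S cells for UCHL3, USP14 and USP5, and lower for USP2 and USP37. Of these 16, USP7, USP16, USP28, USP37 and USP53 lost the call when single libraries were left out, USP16 and USP53 also with library totals (-0.128 and -0.103) and without a filter, and USP37 and USP53 also with DESeq2.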

How the results depend on the processing

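The cause of the changes below was not tested, other than that fits with fewer libraries or genes use fewer of them by construction. With library totals, the counts of members called were 18 higher and 20 lower (median -0.077) for bortezomib in control cells, 14 lower (median 0.096) in Lo19S cells, 4 lower (median 0.156) between the states under bortezomib, and 14 higher (median 0.098) for the difference of the responses. In the same order, members were 37.5% higher and 41.7% lower, 29.2% lower, 8.33% lower and 29.2% higher. All genes were 25.3% higher and 57.4% lower, 53.8% lower, 12.8% lower and 22.6% higher. The same scaling turned the sign of the bortezomib response in control cells of USP10 (-0.153), USP11 (-0.174), USP20 (-0.084), USP25 (-0.204), USP31 (-0.135), USP32 (-0.119), USP33 (-0.011), USP34 (-0.075), USP49 (-0.08) and USP54 (-0.176), and in Lo19S cells of BAP1 (-0.026), UCHL5 (-0.197), USP20 (-0.047), USP37 (-0.04) and USP54 (-0.096). Between the states under DMSO, 4 members were higher without a filter and 5 with DESeq2, and 2 were lower in a fit of only the groups compared and 2 with DESeq2. All genes called higher there numbered 1296 of 34361 tested without a filter and 1162 with DESeq2, against 1720 of 14714 otherwise. Those called lower numbered 1455 of 14239 in the fit of only the groups compared and 1277 with DESeq2, against 1908 otherwise. For bortezomib in control cells the members' median was 0.233 without a filter, and DESeq2 called 7 members lower between the states under bortezomib. Over all genes DESeq2 called 2469 lower in that comparison, against 3119 otherwise. UCHL5 between the states under bortezomib, at 0.001, turned to -0.014 with relative log expression factors, -0.002 without a filter, -0.0 with a stricter filter, and -0.027, -0.016 and -0.004 without control bortezomib replicate 1 or Lo19S bortezomib replicate 2 or 3, with 0.03 as its highest value. Uncalled values under DMSO also turned, BAP1 (-0.137 to 0.007 over the left-out libraries) and USP22 (-0.048 to 0.008) without control DMSO replicate 3, and USP18 (-0.059 to 0.17) without control DMSO replicate 2.

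With single libraries left out, members called ran from 4 to 7 higher and 2 to 6 lower between the states under DMSO (median -0.034 to -0.016, 2840 to 4603 genes), 12 to 17 and 8 to 12 between them under bortezomib (median 0.006 to 0.054, 5368 to 7080 genes), 31 to 34 and 6 to 8 for bortezomib in Lo19S cells (0.359 to 0.411, 10872 to 11828 genes), 31 to 32 and 7 to 9 in control cells (0.295 to 0.345, 11659 to 12124 genes), and 5 to 10 and 6 to 9 for the difference of the responses (-0.019 to 0.031, 3408 to 4981 genes). The replicate numbers mark no shared culture in the labels, and the 18 pairs of same-numbered libraries had correlations of deviations from -0.072 to 0.026. A fit with replicate number as a block called 3445 genes between the states under DMSO and 8 members higher and 5 lower, 14 and 11 members between the states under bortezomib, where USP3 and USP9X were not called, 32 and 7 for bortezomib in Lo19S cells, 32 and 8 in control cells, and 8 and 8 for the difference of the responses (3889 genes). USP18 and USP51, with the fewest counts, are limited most by depth.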
